A study of Camponotus floridanus with 48 samples.

Results

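Gene expression was compared between 8 terminal larvae of intermediate length and 14 short ones in the Florida carpenter ant, Camponotus floridanus. These 22 larvae were chosen from the 48 of the series by ant number. The 14 short larvae were No. 2, 12, 16, 18, 20, 22, 23, 24, 47, 51, 54, 55, 58 and 61, and measured 4783.45 to 5376.84 µm (mean 5137 ± 156 µm, SD, n = 14). The 8 intermediate larvae were No. 19, 21, 27, 35, 62, 64, 72 and 77, and measured 5395.82 to 5991.09 µm (5629 ± 196 µm, SD, n = 8). The mean lengths thus lay 0.492 mm apart, while the longest short larva and the shortest intermediate larva differed by 19.0 µm. All 48 animals were females from 1 colony, recorded as colony No. 30, with no treatment or genotype named, and polyA RNA of each whole body made up 1 library. With 1 colony, the spread between larvae includes no difference between colonies.

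Workers of this species range from small minors to large majors. The size of an adult ant worker is reached through growth as a larva, which depends on feeding and on hormonal signals, and the terminal larva is the last larval stage before the pupa. The labels give the length of each larva but neither its age within the stage nor its adult size, so length differences cannot be told apart from differences in age. In whole bodies, fewer cells of a type and less RNA per cell cannot be told apart either. Genes carry the locus symbols of the RefSeq annotation of Cflo_v7.5, which gives a descriptive symbol for 4 genes, so most roles are not known here and tissue markers other than Titin could not be checked.

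All 22 larvae had low scores on the first principal component of log2 CPM (read counts scaled to a common library size) over the 48 libraries, which held 48.5% of the variance. Since the component score chose the larvae, it is given as a description. Scores ran from -57.6 to -10.6 in the short larvae and from -51.3 to 3.53 in the intermediate ones. Larva No. 64 had the score of 3.53, and the next highest among the 22 were No. 19 at -8.05 and No. 2 at -10.6. The larvae with high scores, here called the alternative state, began at 23.1 with larva No. 6. The common state is the name used for the others, of which No. 42 reached 5.30. Of the 25 larvae up to 5991.09 µm, the 3 left out by the score were No. 9, No. 15 and No. 17, at 37.3, 31.9 and 55.9.

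**Figure D1:**
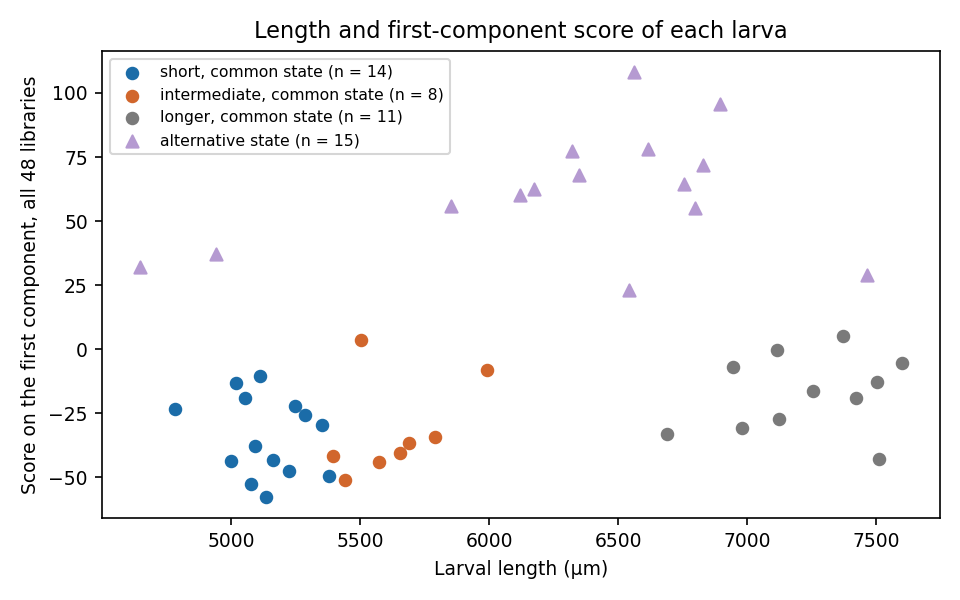
Score on the first principal component of all 48 libraries (y axis, no unit) against larval length in µm (x axis), with 1 point per larva. The 14 short and 8 intermediate larvae of the common state have scores from -57.6 to 3.53, and the 15 larvae of the alternative state lie at 23.1 and above.

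Per library, 36605646 to 63171579 reads were assigned to genes in the 22 larvae, with 10055 to 10449 genes with at least 10 reads. In exact two-sided permutation tests over larvae, 5 library measures gave adjusted p from 0.505 to 0.949 between the groups. These measures were the total, the number of detected genes, the share of the 10 most abundant genes, the trend with transcript length and the second-component score. The mean total was 44360000 reads in the intermediate and 48750000 in the short larvae. Within the 22 libraries, larva No. 64 had the highest score on the first component (24.8% of the variance), at 63.5. No. 2 followed at 40.2 and No. 19 at 30.7, and the lowest score was -36.45 in No. 24.

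No gene passed the test between intermediate and short larvae. Of 10407 genes tested, 0 (0%) reached an adjusted p under 0.05 in edgeR's quasi-likelihood test with Benjamini-Hochberg adjustment, and the smallest adjusted p was 0.596. At an unadjusted p under 0.05 there were 852 genes (8.19%), of which 376 (3.61%) were higher and 476 (4.57%) lower in the intermediate larvae. For 0 genes (0%) did all intermediate larvae lie above, or all below, every short larva. The count at unadjusted p depended on single larvae. It was 478 without No. 19, 1431 without No. 64, 1442 without No. 35 and 1296 without No. 51. DESeq2 called 1 gene, LOC105251854, which is described below, and limma-voom called 0 genes, with 757 at an unadjusted p under 0.05.

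The intervals show what size of difference these larvae leave room for. The 95% interval of the difference lay wholly inside a 2-fold change in either direction for 9476 of the 10407 genes (91.1%), and inside 1.5-fold for 7861 (75.5%). Among the 8081 genes with a mean of at least 5 CPM, 7783 (96.3%) lay inside 2-fold and 7069 (87.5%) inside 1.5-fold. Estimates themselves passed 2-fold for 79 genes, of which 23 had at least 5 CPM. The median standard error over all genes was 0.11 on the log2 scale. These intervals are not adjusted for the number of genes, and a p above the threshold does not show that the groups are alike. They cover larvae of the common state only. Since these larvae were kept by a score drawn from expression itself, the spread may be narrower than among all larvae of these lengths.

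Among genes with at least 5 CPM, the 10 of smallest p on the higher side and the 10 on the lower side are named below, none of which passed the test. Each has an adjusted p of 0.596 (edgeR). The genes were picked by p in these same larvae. That most intermediate larvae lay on the same side of the short median follows from this choice. The higher genes were LOC105257346, LOC105255445, LOC105259494, LOC105255615, LOC105248980, LOC105250562, LOC105251328, LOC105253024, LOC105253733 and LOC105254317. All 10 are annotated as protein coding, and their estimated folds ran from 1.17 (LOC105253733) to 3.29 (LOC105251328).

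LOC105257346 had the smallest p of the 10. Its CPM had a lowest value of 17.8, a median of 20.7 and a highest of 22.8 in the short larvae, against 20.5, 24.2 and 28.1 in the intermediate ones. The ranges overlapped, and 7 of the 8 intermediate larvae lay above the short median. The estimated difference was 1.20-fold, with a 95% interval from 1.10 to 1.31, and the adjusted p with 2 surrogate variables as covariates, a setting chosen after the data were seen, was 0.0349. LOC105255445 ran from 7.51 through a median of 10.9 to 15.6 CPM in the short and from 12.7 through 15.3 to 27.1 in the intermediate larvae, an estimated 1.56-fold (1.26 to 1.95). All 8 intermediate larvae were above the short median, and the upper part of the short range still overlapped the intermediate values. LOC105248980 had 27.1, 36.9 and 46.2 CPM as lowest, median and highest short values and 38.2, 48.7 and 52.2 as intermediate ones, an estimated 1.25-fold. Again 8 of 8 lay above the short median, within overlapping ranges.

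LOC105251328 had the widest spread of the 10. It ran from 1.14 through 2.13 to 7.37 CPM in the short larvae and from 1.13 through 7.71 to 33.8 in the intermediate ones. In 6 of the 8 intermediate larvae it lay above the short median, and the ranges overlapped from the lowest intermediate value to the highest short one. The estimated difference was 1.72 on the log2 scale, or 3.29-fold (1.67 to 6.49), and it was 1.05 on the log2 scale without larva No. 72, which had the highest value. LOC105255615 likewise had a highest intermediate value of 217 CPM against an intermediate median of 68.8, with 47.6, 55.9 and 84.9 in the short larvae. Its intermediate mean of 106 ± 68.2 CPM (SD, n = 8) therefore lay well above its median.

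The lower genes of smallest p were LOC105251854, LOC105251981, LOC105253448, LOC105247768, LOC105256624, LOC105251186, LOC105255063 and LOC105254516, all protein coding, and the long non-coding RNA genes LOC112638824 and LOC105255575. The estimated differences were small, from 1.13-fold (LOC105255063) to 1.33-fold (LOC105251854), expressed as short over intermediate. In 6 of these 10 genes all 8 intermediate larvae lay below the short median, and in the other 4 it was 7 of 8. As these genes were picked by p in the same larvae, such counts follow from the choice and add no support.

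LOC105251854 had the smallest p in this comparison among genes with at least 5 CPM. Its short larvae ran from 3.81 through a median of 6.09 to 7.52 CPM and its intermediate larvae from 3.98 through 4.56 to 4.97. The overlap came from 1 short larva, No. 51, whose value of 3.81 CPM was the lowest of the 22. Larvae No. 9, 15 and 17 of the alternative state were lower still, from 2.95 to 3.62 CPM. Whether this gene follows the state was not tested. The difference between intermediate and short larvae was -0.41 ± 0.09 on the log2 scale (SE). Without larva No. 51 it was -0.45 with an adjusted p of 0.0107 in edgeR. This p was reached by leaving out the larva whose value went against the difference. Of the 22 larvae left out in turn, No. 51 was the only 1 whose removal brought the adjusted p under 0.05. DESeq2 with all 22 larvae gave an adjusted p of 0.0413. LOC105251981 ran from 20.0 through 22.0 to 27.3 CPM in the short and from 17.3 through 19.7 to 20.3 in the intermediate larvae, an estimated 1.17-fold. Its groups overlapped only between 20.0 and 20.3 CPM. The most abundant of the 10, LOC105251186, had 164, 197 and 245 CPM as lowest, median and highest short values and 152, 171 and 194 as intermediate ones, with wide overlap.

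**Figure D2:**
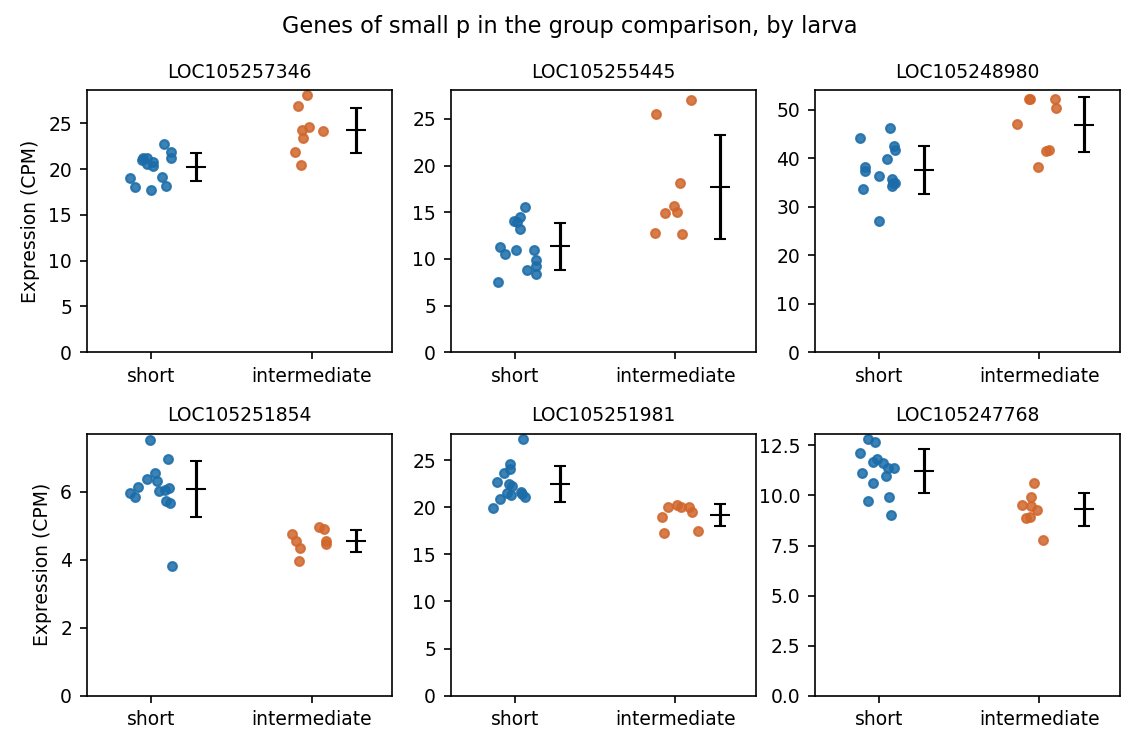
Expression in CPM (y axes, each starting at 0) by larva in the 14 short and 8 intermediate larvae for 3 genes with higher and 3 with lower intermediate means. Each point is a larva, bars are the mean and SD, and the groups overlap in all 6 genes, with a single low short larva of 3.81 CPM in LOC105251854.

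Length was then used as a measured quantity, since the groups meet at a narrow boundary. Over the 22 larvae 0 of 10407 genes (0%) had a slope with length that passed the test, with a smallest adjusted p of 0.322 (edgeR) and 1137 genes (10.9%) at an unadjusted p under 0.05. DESeq2 called 5 rising and 15 falling genes, and limma-voom called 0, with 1059 at an unadjusted p under 0.05. The count at unadjusted p was 685 without larva No. 19, and without No. 51 edgeR called 1 rising gene, LOC105258679, with a slope of 3.75 log2 per mm and an adjusted p of 0.0339. In a fit with group and length together, which asks whether genes follow length inside the groups, 0 genes (0%) passed and 248 (2.38%) had an unadjusted p under 0.05, while limma-voom gave 0 and 272. With at least 5 CPM, the genes of smallest p there were LOC105250629, LOC105252673 and LOC105255560, each with an adjusted p of 0.997 (edgeR).

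LOC105250629 had the smallest p of these. In the short larvae it ran from 27.8 through a median of 36.5 to 60.4 CPM and in the intermediate ones from 26.7 through 33.8 to 88.8. The highest value, 88.8 CPM, belonged to No. 19, the longest of the 22, and the next intermediate larva had 36.7. LOC105255560 had a narrow range, from 26.7 through 29.3 to 32.2 CPM in the short and from 23.1 through 28.5 to 30.9 in the intermediate larvae. Its slope inside the groups was -0.45 ± 0.13 log2 per mm (SE).

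A second question was whether genes that follow length elsewhere in the series also do so among these short larvae. It was asked after the data were seen. The other 26 larvae, which share no animal with the 22, were fitted with length and state as terms. In them 647 of 10288 genes (6.29%) were associated with length at an adjusted p under 0.05 in edgeR, 242 rising (2.35%) and 405 falling (3.94%). Of these, 241 rising and 405 falling genes were also tested in the 22 larvae. The 26 included No. 42 and No. 43, which had 8928646 and 6608767 reads, fewer than any of the 22. The fit was not repeated with only these larvae left out.

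In the 22 larvae, the slope was positive for 195 of the 241 rising genes (80.9%) and negative for 304 of the 405 falling genes (75.1%). Among all 10407 genes 51.7% of slopes were positive and 48.3% negative. The median slope was 0.20 log2 per mm for the rising genes and -0.12 for the falling ones, against 0.010 for all genes. At an unadjusted p under 0.05 there were 39 rising genes with a positive and 0 with a negative slope, and 51 falling genes with a negative and 0 with a positive slope. These made up 16.2% and 12.6% of the sets, beside the 4.68% of all genes with a positive and the 6.25% with a negative slope at that p. Genes of a set vary together from larva to larva, so they are not independent observations and no p is given for the shares.

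**Figure D3:**
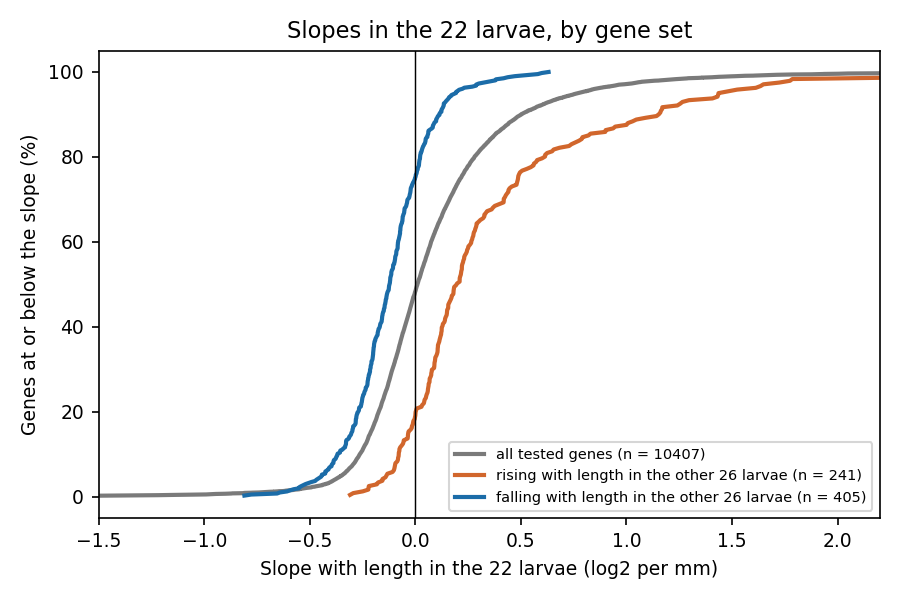
Cumulative share of genes in percent (y axis) by slope with length in the 22 larvae in log2 per mm (x axis), for all 10407 genes and for genes that rose (n = 241) or fell (n = 405) with length in the other 26 larvae. Slopes beyond the axis are not drawn. At a slope of 0 the curve of the falling genes stands at 75.1%, and that of the rising genes stands near the 19.1% with a negative slope.

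The difference between the groups is set beside what those slopes would give over 0.492 mm. Because the genes were chosen by their slopes in the other 26 larvae, these slopes are likely too steep, and a smaller value in the 22 larvae does not show a smaller change. For the rising genes the median difference was 0.07 log2, while the slope of the other 26 larvae times the length gap had a median of 0.22. For the falling genes these values were -0.022 and -0.19. Intermediate larvae were higher for 179 of 241 rising genes (74.3%) and lower for 226 of 405 falling genes (55.8%), beside 53.0% and 47.0% of all genes. The 95% interval of the difference held the value from the other larvae for 175 of the 241 rising and 325 of the 405 falling genes, and it held 0 for 218 and 374. Most single genes therefore could not be told from either value. Inside the groups, 205 rising genes (85.1%) had a positive and 376 falling genes (92.8%) a negative slope, with 48.0% of all genes positive. Few of these slopes had an unadjusted p under 0.05 (edgeR), 9 rising (3.73%) and 11 falling genes (2.72%), beside 2.38% of all genes. The median slopes of 0.27 and -0.28 log2 per mm were smaller than the median SE of 0.33 and 0.32. The shares inside the groups were not computed with each larva left out.

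The 5 rising genes of smallest p in the other 26 larvae, with at least 5 CPM, were LOC105253611, LOC105255241, LOC105257265, LOC105253297 and LOC105258651, and the falling ones LOC105254693, LOC105249393, LOC105256766, LOC105250905 and LOC105252321. All 10 slopes in the 22 larvae had the sign seen in the others, and none passed the test. LOC105253297 ran from 52.7 through a median of 70.6 to 85.7 CPM in the short and from 50.9 through 76.3 to 89.7 in the intermediate larvae. The groups overlapped almost wholly, and the slope was 0.25 ± 0.16 log2 per mm (SE, adjusted p = 0.557, edgeR) against 1.01 ± 0.20 in the other larvae. LOC105257265 had the steepest slope of the 5 rising genes in the 22 larvae, 0.38 ± 0.17 (adjusted p = 0.434, edgeR) beside 0.48 ± 0.09 in the others. Within the common state its mean did not keep rising, at 86.3 CPM in the short, 96.5 in the intermediate and 90.0 in the longer larvae. The other rising genes named here had their highest mean in the longer larvae. LOC105252321 was the steepest of the falling ones, at -0.27 ± 0.16 (adjusted p = 0.535, edgeR) beside -0.53 ± 0.08. It was -0.45 without larva No. 19 and -0.16 without No. 21. The slopes of LOC105258651 and LOC105254693 changed sign when No. 21 was left out, and that of LOC105254693 also without No. 22.

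The change per mm between short and intermediate larvae was compared with that between intermediate larvae and the 11 longer ones of the common state (6689.42 to 7598.06 µm, mean 7228 µm). In a fit of these 33 larvae, 0 of 10528 genes (0%) showed a difference between the 2 changes per mm, with 168 (1.6%) at an unadjusted p under 0.05, while limma-voom gave 0 and 159. In the same fit 0 genes (0%) passed between intermediate and short larvae and 528 (5.02%) between longer and intermediate larvae, 320 higher (3.04%) and 208 lower (1.98%). These 2 comparisons share the intermediate larvae and span 0.492 and 1.60 mm, so their counts do not show that expression changes more beyond 5991.09 µm. Larvae No. 42 and No. 43, both longer, had 8928646 and 6608767 reads, fewer than any of the 22.

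With at least 5 CPM, the genes of smallest p for the change of slope were LOC105255445, LOC105251854 and LOC112638824. They were already among the named genes, each with an adjusted p of 0.998 (edgeR). The change of slope contains the difference between the same short and intermediate larvae. It therefore favours genes with a small p in that comparison, and their return here adds no support. The mean of LOC105255445 was 11.3 ± 2.52 CPM in the short, 17.7 ± 5.58 in the intermediate and 13.1 ± 3.44 in the longer larvae (SD, n = 14, 8 and 11). The mean of this gene was thus highest in the middle of the lengths, a pattern that the choice by change of slope favours, and the spreads overlap. LOC112638824 went the other way, with 7.82 ± 0.64, 6.54 ± 0.66 and 7.10 ± 0.95 CPM.

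By gene class, protein-coding genes had a median difference of 0.0082 log2 between intermediate and short larvae, near the 0.011 over all genes. Of the 9825 tested, 359 were higher and 469 lower at an unadjusted p under 0.05 (8.43%, beside 8.19% of all genes). Long non-coding RNA genes had a median of 0.10, and 67.6% of 432 had a positive difference, beside 53.0% of all genes. Their median standard error was 0.24, against 0.11 over all genes, and 20 of the 432 (4.63%) had an unadjusted p under 0.05, 14 higher and 6 lower, a lower share than the 8.19% of all genes. For the slope with length over the same larvae, 56% of the 432 were positive, beside 51.7% of all genes, with a median of 0.047 log2 per mm and, at an unadjusted p under 0.05, 10 positive and 11 negative slopes. The 115 pseudogenes tested had a median of 0.024. None of these classes held a gene that passed the test.

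The 4 genes with descriptive symbols did not pass the test either. Titin, named for the giant elastic protein of the muscle sarcomere, had short values of 10.3, 13.9 and 23.9 CPM as lowest, median and highest, and intermediate values of 13.97, 17.6 and 28.4. The ranges overlapped, with 7 of 8 intermediate larvae above the short median, an estimated 1.19-fold difference (0.957 to 1.49) and an adjusted p of 0.664 (edgeR). Makorin-1, a member of a family of RING-finger proteins, had medians of 26.7 and 25.6 CPM in the short and intermediate larvae, and an interval from 0.860 to 1.10-fold. Traa had medians of 88.4 and 144 CPM, within ranges of 70.8 to 209 and 67.1 to 255. Trab had medians of 27.2 and 41.5 CPM, within ranges of 19.0 to 50.8 and 18.4 to 51.9. It was among the falling genes of the other 26 larvae, with a slope of -0.30 ± 0.07 log2 per mm (SE). In the 22 larvae its slope had the opposite sign, 0.21 ± 0.33. Makorin-1, Traa and Trab were picked after their values were seen.

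A few genes made up a large part of the RNA. The 10 most abundant took 14.2% to 31.9% of the reads of a short larva and 20.7% to 31.8% of an intermediate one. LOC105250772 ran from 39790 through a median of 54620 to 77790 CPM in the short larvae and from 38870 through 43350 to 55060 in the intermediate ones. In 7 of the 8 intermediate larvae it lay below the short median, an estimated 1.17-fold difference with an adjusted p of 0.626 (edgeR). LOC105255423 had medians of 17190 and 21330 CPM and LOC105256665 of 10540 and 14020, with overlapping ranges and adjusted p of 0.852 and 0.692 (edgeR).

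LOC105258900, LOC105258901 and LOC105258932 follow each other in the gene table, and together they held 13.6% ± 4.89 of the reads in the short and 13.3% ± 3.73 in the intermediate larvae (SD, n = 14 and 8). Neighbouring genes of this kind may share reads if they are near-identical copies, so the split between them is uncertain. Larva No. 51 stood apart with 0.216%, while the other 21 larvae ran from 6.25% (No. 19) to 18.6% (No. 58). LOC105258932 had 755 CPM in No. 51 and 26660 to 84920 in the others. In the 15 larvae of the alternative state the 3 genes held 0.00177% to 5.09% of the reads (median 0.0901%). No. 51 thus lay inside the range of that state. The lowest share in the longer larvae of the common state was 1.14%. The differences between intermediate and short larvae were -0.03 to -0.08 log2 with SE of 0.39 or 0.40, and the sign of all 3 turned under other settings.

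LOC109610441 varied even more and is shown because it is the most abundant gene with an SD over 2 log2 units among the 22 larvae, apart from the genes with a gap described next. It was chosen after its values were seen. In the short larvae its lowest value was 7.76 CPM, its median 7449 and its highest 14030. In the intermediate larvae these were 35.5, 1802 and 9478. The lowest values belonged to No. 51 and No. 19, which also had the lowest levels of LOC105258932, and the next lowest was 343 CPM in No. 72. The difference between groups was -1.03 ± 0.80 log2 (SE, adjusted p = 0.708, edgeR), so the range inside each group was far wider than the difference. In the 15 larvae of the alternative state it ran from 0.0725 through a median of 9.17 to 448 CPM.

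**Figure D4:**
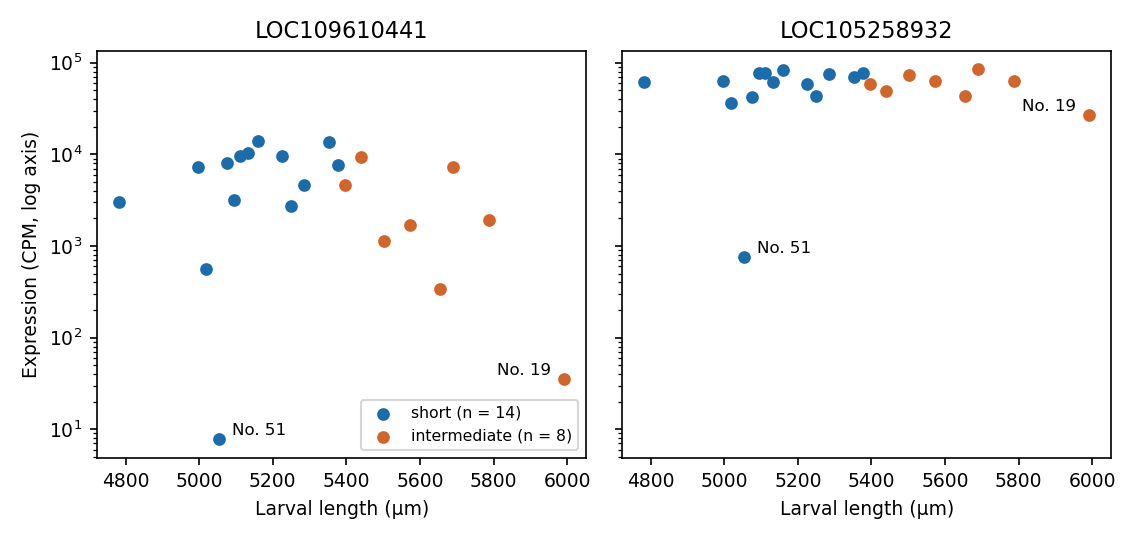
Expression in CPM (y axis, log scale) of LOC109610441 and LOC105258932 against larval length in µm (x axis) in the 14 short and 8 intermediate larvae, 1 point per larva. Larvae No. 51 and No. 19 are the lowest in both, at 7.76 and 35.5 CPM for LOC109610441 and at 755 and 26660 CPM for LOC105258932.

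Over the 8081 genes with at least 5 CPM, the SD between the 22 larvae had a median of 0.21 log2 units, with 0.10 and 0.67 at the lowest and highest 5% of genes. It passed 2 for 55 genes. A group of genes was either at or near 0 or clearly present. They were found, after the data were seen, as genes with a gap of at least 8-fold in log2(CPM + 0.1) between neighbouring larvae, at least 3 larvae on each side, and at least 2 CPM above the gap. All 10407 tested genes were searched, also those under 5 CPM. There were 11 such genes among them, and 4 with a pseudocount of 1 CPM in place of 0.1. A count of 0 in these libraries allows up to 0.0475 to 0.0820 CPM, taking 3 reads as the floor and covering counting error only.

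For 5 of the 11 genes the larvae fell into the same sets. LOC112637027, the pseudogene LOC112638006, LOC112639836 and the long non-coding RNA gene LOC112639856 were high in the same 12 larvae, the short larvae No. 18, 20, 23, 24, 51, 55, 58 and 61 and the intermediate larvae No. 19, 27, 35 and 64. LOC105253677 was high in the remaining 10 and low in these 12. LOC112637027 ran from 12.96 through a median of 24.1 to 37.4 CPM in the 12 larvae and was at most 0.174 CPM in the other 10. LOC112638006 ran from 13.3 through 18.6 to 28.1 CPM in the 12, with at most 0.0968 in the 10. LOC105253677 ran from 11.4 through 16.4 to 33.5 CPM in the 10 and reached at most 0.0924 in the 12. Each side thus held both short and intermediate larvae, 8 and 4 on the first and 6 and 4 on the second.

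The same division was found in the 26 other larvae, which were not used to find these genes. All 4 genes of the first kind were on the same side as each other in 26 of 26 larvae, high in 15 and low in 11, and LOC105253677 was on the opposite side in 26 of 26. For LOC112637027 the 26 larvae had at most 0.379 or at least 14.8 CPM, and for LOC105253677 at most 0.170 or at least 14.2. LOC112639856, the least abundant, was at 0 in the low larvae and from 1.37 CPM in the high ones. Some of the 26 lay between the ranges that the low and the high larvae of the 22 had, 6 for LOC112639856, 3 for LOC105253677 and 1 for each of the other 3 genes. LOC112639836 and LOC112639856 are neighbours in the gene table, and the others are not next to them. Whether near-identical copies share reads among these genes could not be checked, because no sequences were used.

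The other 6 genes with a gap divided the larvae differently. LOC112638491 was at least 2.49 CPM in 11 larvae, 7 short and 4 intermediate, and 0 in 11. LOC105250137 was at least 19.9 CPM in 15 and at most 0.578 in 7. LOC105252539 was listed at 0 in 3 larvae and ran from 3.87 to 44.1 CPM in 19, and the long non-coding RNA gene LOC112637445 was also at 0 in 3 and between 2.2 and 4.67 CPM in 19. The pseudogene LOC112638012 was high in 8 larvae and the long non-coding RNA gene LOC112638951 in 16. In all 11 genes both short and intermediate larvae were found on the high side.

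**Figure D5:**
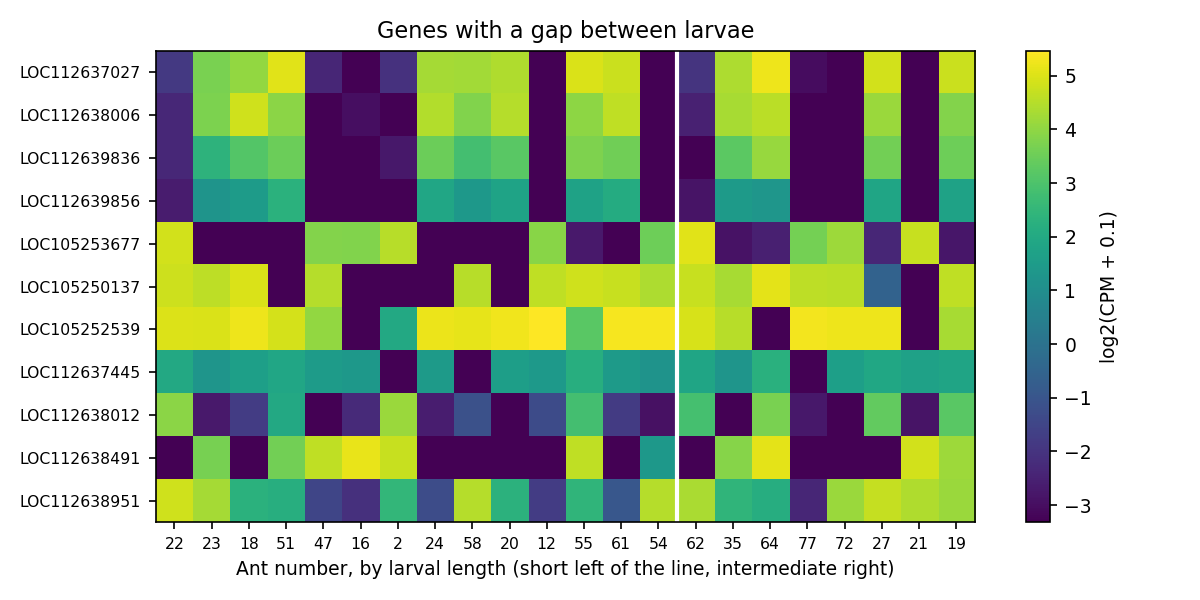
Expression as log2(CPM + 0.1) (colour) of the 11 genes with a gap, 1 row per gene and 1 column per larva in order of length, with a white line between the 14 short and 8 intermediate larvae. The upper 4 rows are high in the same 12 larvae, and LOC105253677 in the fifth row is high in the other 10.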

How the data were processed

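Per the labels' protocols, libraries were made from polyA RNA of whole terminal larvae with strand-marking modules and read as pairs. Trim Galore 0.6.7, bcl2fastq 2.20, DESeq, DESeq2 and Salmon stand in the submitters' processing notes. Neither the genome build nor the strand setting is given in the sources read here. Each larva's deposited file lists TPM and estimated counts (expected counts) per transcript, per the file headers. A deposited table holds a normalized signal per transcript, used only for an alternative. 0 of its columns belong to other samples.

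Of 26315 transcripts, 25811 were matched to genes of Cflo_v7.5 by accession, 397 by symbol and 106 by tRNA name, and 1 was left out, at most 0.00124% of a library. Estimated counts were summed over 13878 genes and rounded. Genes passing filterByExpr were scaled by TMM and tested with edgeR 4.0.16 (quasi-likelihood F test, R 4.3.3, Benjamini-Hochberg adjusted p under 0.05). The SE is the estimate divided by the square root of F. Printed CPM use TMM factors over all 48 libraries. Permutation tests used scipy 1.17.1. No pair of libraries held identical values.

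The members and lists were chosen with earlier results of these data known. Named genes have a mean of at least 5 CPM: the 10 higher and 10 lower of smallest p, the 6 most abundant, Titin, and the 3 of smallest p for the slope inside groups and for the change of slope. Lists by product words (30) and by protein pattern (16) were not usable without products or proteins in the gene table, and 1 list had a match, Titin. Further genes, the fit of the other 26 larvae, the genes with a gap and the surrogate variables (sva 3.50.0) were added after the data were seen, and a narrower gap that gave more genes was tried first. Alternatives were RLE and upper-quartile scaling, no filter, limma-voom (limma 3.58.1), DESeq2 1.42.0, covariates, other sets of larvae, single transcripts, the authors' normalized signal table as log2(value + 1), and each larva left out in turn. The scripts were tested on simulated data.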

Additional observations from a re-analysis of the deposited data

Results flagged for a closer look

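In the group of 8 intermediate larvae, 57 series of values (the named genes and 9 library measures) were checked for a single larva far from the rest, and 4 were flagged. For series not chosen by their values, chance flags about 1 in 20 groups. All 4 flagged genes were named for their p or fold in these same larvae, so this rate need not hold for them. LOC105250629 was 88.8 CPM in larva No. 19 and 36.7 in the next. LOC112637460, one of the genes with the largest estimated fold, was 54.2 CPM in No. 19 and 8.60 in the next, and its difference of 1.49 log2 was 0.11 without No. 19. The long non-coding RNA gene LOC105255575 was 13.9 CPM in No. 64 and 9.28 in the next. LOC105252673 was 10.97 CPM in No. 35, the lowest, and 21.7 in the next. The transcript matched to no gene, which no comparison used, had a median of 71.5 reads per library in the short larvae and 56 in the intermediate ones.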

How the results depend on the processing

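Under the alternatives for the comparison of intermediate with short larvae, 0 genes were called except for 1 lower gene with DESeq2, 1 higher gene with 2 surrogate variables and 1 lower gene without larva No. 51 (0 to 0 higher and 0 to 1 lower with each larva left out). The number at an unadjusted p under 0.05 was 545 with the ant number, 1472 with the trend with transcript length and 1438 with the surrogate variables as covariates, and 478 to 1442 with each larva left out. For the slope over the 22 larvae, DESeq2 called 5 higher and 15 lower genes, and 713 genes had an unadjusted p under 0.05 with larvae No. 9, 15 and 17 added. With each larva left out, 0 to 1 genes were called higher and 685 to 1650 had an unadjusted p under 0.05. Without a filter, the slope inside the groups called 3 higher and 1 lower gene, all with a mean of at most 1.5 reads, and 421 had an unadjusted p under 0.05, and the change of slope had 353. For protein-coding genes the median difference was 0.0082 log2, 0.00547 with RLE and -0.00928 with upper-quartile scaling.

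Signs turned for LOC105258932 (0.28 with limma-voom, 0.0609 without the 4 larvae next to the boundary, 0.0165 with surrogate variables, -0.14 to 0.0764 with each larva left out) and LOC105258900 (0.23 with limma-voom, 3.46e-05 without the boundary larvae, -0.18 to 0.0385 with each larva left out). They also turned for LOC105258901 (0.22 with limma-voom, -0.19 to 0.0344 with each larva left out), LOC112637460 (-0.37 with the 3 added larvae) and LOC105255423 (-0.0185 with the transcript-length trend). With each larva left out, the slope of LOC105254693 ran from -0.29 to 0.0871 and that of LOC105258651 from -0.00685 to 0.36. The share of rising genes of the other larvae with a positive slope was 77.2% to 80.9% over scalings and 74.7% to 89.6% with each larva left out, and that of falling genes with a negative slope 75.1% to 83.2% and 60.7% to 89.4%. In the 15 larvae of the alternative state alone, 28 rising and 150 falling genes were called. For the 26 and 145 of them tested in the 22 larvae, these shares were 80.8% and 77.2%. The gap rule gave 4 genes with a pseudocount of 1 CPM. The cause was not tested. No paired analysis was possible because each ant number occurs once. The 22 larvae limit the differences that can be seen, and low counts widen the intervals of rare transcripts.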
